A study of Mus musculus with 14 samples.

Results

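Dense core vesicles are the organelles from which neurons and endocrine cells release neuropeptides and neurotrophins. Granins pack the vesicle core, the prohormone convertases and carboxypeptidase E cut and trim the peptide precursors inside it, and the CAPS proteins prime the filled vesicle for fusion with the plasma membrane. Cadps2 encodes CAPS2, which is known in the cerebellum for being made by granule cells and for promoting their release of the neurotrophins BDNF and NT-3. The 10 genes described here are the 2 CAPS priming factors Cadps and Cadps2, the granins Chga, Chgb, Scg2 and Scg3, the convertase chaperone Scg5, and the processing enzymes Pcsk1, Pcsk2 and Cpe, out of 41381 genes in the table. Cadps2 was chosen by its lower level in these same libraries, where Chd7 was targeted. The other 9 were listed by function, with earlier results of these data known. The differences of the 10 genes between genotypes are therefore a description. No p-value of such a difference is printed, and the counts of genes called or past a p threshold are not evidence of a change. The p-values printed for these genes concern the sequencing batch, which the choice did not use.

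RNA was sequenced from granule neuron progenitors (GNPs), the dividing precursors of cerebellar granule cells, that were isolated from mouse cerebella at postnatal day 7. The target was Chd7, a chromatin remodelling ATPase, and the labels gave 5 WT, 5 Het and 4 Hom libraries. Per the labels, WT 1 to 3 are Chd7 wild type, Het 1 and 2 a het mutant and Hom 1 and 2 a hom mutant, all of strain C56Bl6/J as it is spelled there. The other libraries are labelled C57BL/6, with WT 4 and 5 Atoh1-Cre negative, Het 3 to 5 Atoh1-Cre::Chd7 f/+ and Hom 3 and 4 Atoh1-Cre::Chd7 f/f. In the study's text the WT animals carried Chd7 f/f without Cre, and a Percoll gradient of cerebella from pups whose sex was not distinguished yielded the cells. Atoh1-Cre recombines in the rhombic lip lineage that forms granule cells, not in Purkinje cells, and the study gives less efficient recombination as a probable reason for Chd7 protein remaining in the posterior lobe. Sequencing was done in 2 batches, of which the second comprised Hom 3 and 4 together with replicates 4 and 5 of both other labels, and batch 1 the remaining 8 libraries. Apart from Het 3, which is in batch 1, the split by batch is the same as that by strain label and genotype wording. A batch difference below can therefore not be told from a difference between those labels. The sources do not say whether a library came from 1 pup or from several, so the p-values below measure the spread between these libraries.

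The values are in TPM, which gives the transcripts of a gene as a share of all transcripts with their length taken into account, so that levels of different genes can be set side by side. Differences are log2 changes of TPM + 1 from a limma fit over all libraries with a term for batch, and a gene is called where its p, adjusted over all genes tested, is under 0.05. Between 15863 and 16734 genes reached 1 TPM in a library. The targeted gene went against its labels in batch 1. Chd7 lay at 121 to 272 TPM in WT, 137 to 181 in Het and 126 to 185 in Hom, and it was 0.41 higher (log2) in Hom than in WT in batch 1 but lower by 0.77 in batch 2 (log2 change -0.77). These values cover the whole gene and not the floxed exon alone. WT, Het and Hom therefore stand throughout for what the libraries are labelled, and every direction below is one between labels. All 8 GNP markers (among them Atoh1, Pax6, Zic1 and Barhl1) reached a mean of 1 TPM, and their summed level was 2152 to 3319 TPM in WT, 2401 to 2815 in Het and 2390 to 2748 in Hom. Of the 8, Ccnd1, which encodes the cell cycle protein cyclin D1, rose in Hom against WT (log2 change 0.80; limma, adjusted p = 0.00011), and the other 7 were not called.

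The promoters of these genes are shown first, because Cadps2, Scg2 and Pcsk2 were the members with lower levels in Hom and their start regions differ in make-up. RefSeq's table for GRCm38.p6 held 9 of the 10 genes, Cpe being absent, and the 250 bases before each start were read. The sequences below are 5′ to 3′ on the strand of the gene, from chr6:23839422-23839671 (minus strand) for Cadps2 and chr2:143545883-143546132 (plus strand) for Pcsk2.
Cadps2: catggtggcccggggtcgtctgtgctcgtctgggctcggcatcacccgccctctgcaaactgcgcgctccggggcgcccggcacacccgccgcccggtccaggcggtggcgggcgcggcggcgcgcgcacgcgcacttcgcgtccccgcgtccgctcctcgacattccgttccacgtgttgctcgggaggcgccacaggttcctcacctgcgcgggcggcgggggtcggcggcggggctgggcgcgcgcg
Pcsk2: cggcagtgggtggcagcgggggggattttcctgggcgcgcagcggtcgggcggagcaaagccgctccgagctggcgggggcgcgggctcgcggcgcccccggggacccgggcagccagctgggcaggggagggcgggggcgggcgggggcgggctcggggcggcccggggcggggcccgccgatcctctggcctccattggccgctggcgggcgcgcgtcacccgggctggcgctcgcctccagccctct
The Cadps2 stretch was 78.0% G or C with 44 CpG dinucleotides, and the Pcsk2 stretch was 82.4% G or C with 35 CpG. The medians of all 32851 promoters in the table were 52.4% and 6 CpG. That of Scg2 was closer to the median, at 48.0% with 13 CpG.

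The cyclic AMP response element, an 8-base palindrome read here as TGACGTCA, is a classical feature of granin and convertase promoters. It was searched on both strands, where it reads the same, and 508 of the 32851 promoters held it (1.55%). Among the 9 members in the table it was found in 3, namely Scg2, Chgb and Pcsk1, and Chga held the variant TGACGTAA, which 0.447% of all promoters held on either strand. The 30 bases around each match are shown with the element in capitals; they come from chr1:79440076-79440105 (minus strand) for Scg2, chr2:132781559-132781588 for Chgb, chr13:75089768-75089797 for Pcsk1 and chr12:102554886-102554915 for Chga, the last 3 on the plus strand.
Scg2: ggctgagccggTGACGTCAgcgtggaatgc
Chgb: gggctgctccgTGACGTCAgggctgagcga
Pcsk1: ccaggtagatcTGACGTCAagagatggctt
Chga: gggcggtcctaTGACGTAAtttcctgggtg
The matches began 68, 72, 78 and 44 bases before the RefSeq start of Scg2, Chgb, Pcsk1 and Chga. The gene models of GENCODE begin farther upstream for Scg2, Chgb and Pcsk1 and reach into these promoter stretches, by 94, 250 and 31 bases. The matches of Scg2 and Chgb therefore lie inside the GENCODE gene, downstream of its start, and that of Pcsk1 lies before it. The windows of Cadps2 and Pcsk2 held neither string. Of the genes with a match, Scg2 was lower in Hom, and Chgb and Chga were not called. Binding was not analysed here, and the matches are a description of the letters.

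In the WT libraries the genes spanned a wide range of levels. Cpe, the carboxypeptidase that removes basic residues left by the convertases, was the most abundant at 329 ± 38.8 TPM (SD, n = 5) and stood above all other members. Scg3, which binds the granin core to the vesicle membrane, followed at 218 ± 22.5 TPM (SD, n = 5). Cadps2 was at position 3 with 184 ± 12 TPM (SD, n = 5), and 95.0% of the 17325 genes tested had a lower WT mean. Scg5, the chaperone 7B2 of the convertase PC2, had 168 ± 21.3 TPM (SD, n = 5). The WT ranges of Scg3 and Cadps2 overlapped, as did those of Cadps2 and Scg5. After a gap came Chgb, Chga and Scg2 at 54.4, 53.6 and 49.4 TPM, with overlapping neighbours, and then Cadps at 40.5 TPM. Pcsk2, the convertase PC2, had 13.8 ± 2.15 TPM (SD, n = 5), below every value of Cadps. Pcsk1, the convertase PC1/3, was lowest at 0.602 ± 0.106 TPM (SD, n = 5). In Hom the order changed at Cadps2, which moved from position 3 to position 6, overlapping Chgb. Scg2 moved to position 8, behind Cadps, and the Hom ranges of Scg2 and Cadps overlapped. Chga and Chgb, which also overlapped, changed places.

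**Figure D1:**
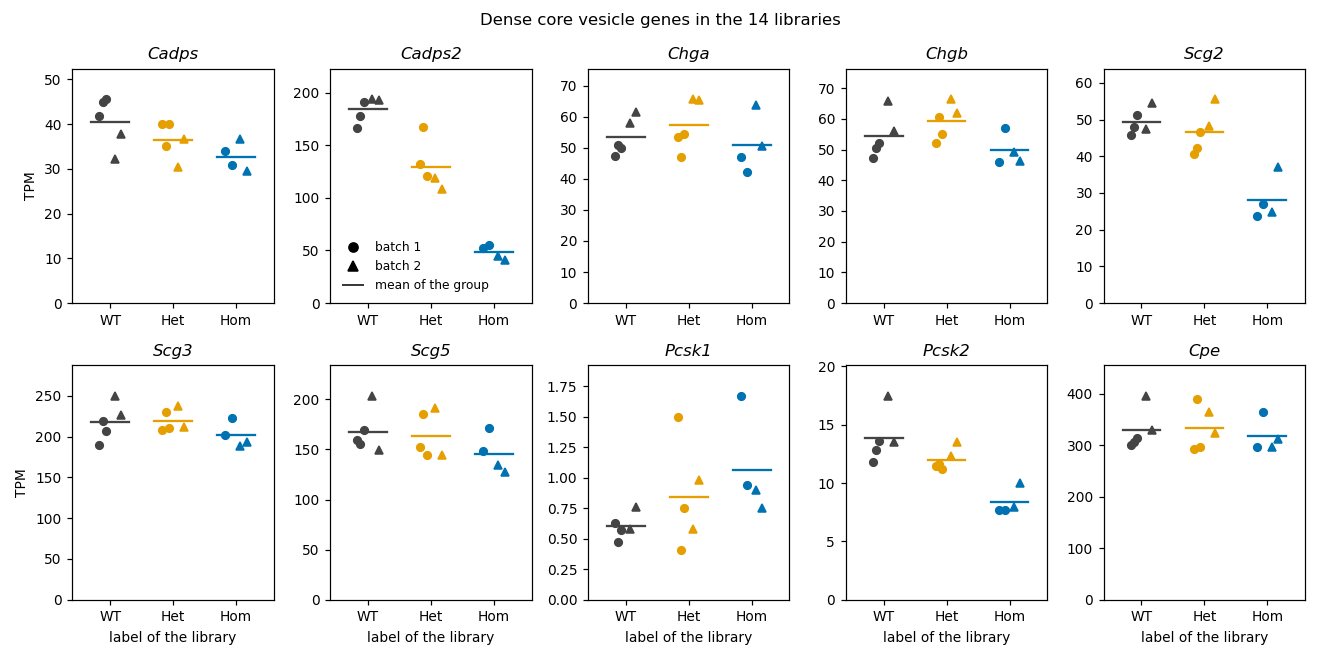
TPM of the 10 dense core vesicle genes (vertical axes, each from 0) in the 14 libraries, grouped by label; circles are batch 1, triangles batch 2 and bars group means. The 4 Hom libraries sit below every WT and Het library for Cadps2, Scg2 and Pcsk2, and the groups overlap for the other 7 genes.

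Of the CAPS pair, Cadps2 (ENSMUSG00000017978; GRCm38 chromosome 6, 23262773 to 23839421, minus strand) had the lowest Hom levels relative to WT. The WT libraries 1 to 5 held 166, 178, 191, 194 and 193 TPM. The Het libraries 1 to 5 held 132, 167, 121, 119 and 109 TPM, and the Hom libraries 1 to 4 held 52.7, 55.6, 44.9 and 41.3 TPM. Every Hom library was below every Het library, and 4 of the 5 Het libraries were below every WT library, the exception being Het 2, which lay just above WT 1. The group means were 184 ± 12 (SD, n = 5), 129 ± 22.6 (SD, n = 5) and 48.7 ± 6.65 TPM (SD, n = 4), so that Het stood at 70.3% and Hom at 26.4% of WT. With the batch term, the log2 change was -1.89 (SE 0.11) in Hom against WT, -0.52 (SE 0.10) in Het against WT and -1.37 (SE 0.11) in Hom against Het. Of the 17325 genes tested, 27 had a Hom against WT change as low as this, Cadps2 included. Fewer cells that express a gene and less of its RNA per cell cannot be told apart in these bulk libraries, here and for all genes below.

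Cadps2 was lower within each batch as well. In batch 1 its log2 change in Hom against WT was -1.70 and in batch 2 it was -2.14, and for Het against WT the values were -0.36 and -0.76. The difference between the batches was -0.44 (SE 0.18) for Hom (limma interaction, adjusted p = 0.239) and -0.40 (SE 0.17) for Het (adjusted p = 0.525), neither past the threshold. Hom and Het are both set against the same WT libraries, so their changes are not independent. Without Het 2 the Het change of Cadps2 was -0.60, and this was the only one of the 14 fits leaving out 1 library in which Cadps2 was called in Het against WT. Inside the Cadps2 gene lie Rnf133 (0.04 to 2.88 TPM) and Rnf148 (0.14 to 2.54 TPM) on the same strand, both far below Cadps2 in every library.

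Cadps (ENSMUSG00000054423; chromosome 14, 12372563 to 12823079, minus strand), which encodes the paralogue CAPS1, was less abundant and its groups overlapped. Its WT libraries held 41.9, 45.0, 45.6, 32.1 and 37.8 TPM, its Het libraries 40.03, 35.1, 40.05, 30.5 and 36.6 TPM, and its Hom libraries 33.9, 30.8, 36.7 and 29.5 TPM. The log2 change in Hom against WT was -0.27 (SE 0.10), with -0.44 in batch 1 and -0.08 in batch 2, and the change was not called. Within batch 1 the 2 Hom libraries lay below all 3 WT libraries, and within batch 2 the groups overlapped. Cadps2 held 79.8% to 85.8% of the summed TPM of the pair in WT, 74.8% to 82.6% in Het and 55.1% to 64.3% in Hom, where the share was lower than in every other library. The pair together came to 225 ± 10.7 TPM in WT (SD, n = 5), 166 ± 22.8 in Het (SD, n = 5) and 81.4 ± 7.40 in Hom (SD, n = 4). Cadps2 remained the more abundant CAPS transcript in every Hom library, by 1.23 to 1.80 times, against 3.95 to 6.03 times in WT.

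**Figure D2:**
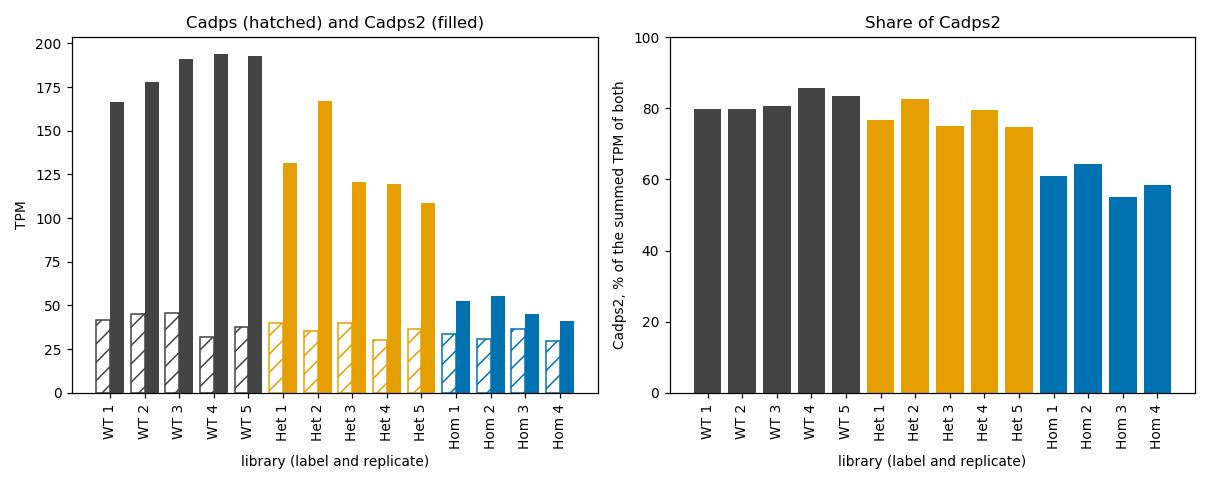
Left, TPM of Cadps (hatched) and Cadps2 (filled) in each of the 14 libraries, coloured by label; right, the share of Cadps2 in the summed TPM of both, in percent. The mean of Cadps goes from 40.5 TPM in WT to 36.5 in Het and 32.7 in Hom, with overlapping groups. That of Cadps2 goes down further, from 184 to 129 and 48.7 TPM, and its share is 55.1% to 64.3% in Hom.

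Among the granins, Scg2 was lower in Hom and the other 3 were not called. Scg2 (ENSMUSG00000050711; chromosome 1, 79434669 to 79440120, minus strand) encodes secretogranin II, the precursor of the peptide secretoneurin. Its WT libraries held 45.7, 47.9, 51.2, 47.5 and 54.6 TPM, its Het libraries 40.6, 42.3, 46.7, 48.1 and 55.6 TPM, and its Hom libraries 23.8, 27.1, 24.9 and 36.95 TPM. Every Hom library lay below every WT and every Het library, while WT and Het overlapped, and Hom 4 was the highest of the Hom libraries. Mean levels came to 49.4 ± 3.53 (SD, n = 5), 46.7 ± 5.86 (SD, n = 5) and 28.2 ± 6.02 TPM (SD, n = 4), with Hom at 57.0% of WT. The log2 change was -0.83 (SE 0.11) in Hom against WT, -0.09 (SE 0.10) in Het against WT and -0.74 (SE 0.11) in Hom against Het. Both batches held the difference between Hom and WT, at -0.90 and -0.73.

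Chga (ENSMUSG00000021194; chromosome 12, 102554969 to 102565028, plus strand) encodes chromogranin A, and its level followed the batch. It had 47.2 to 51.0 TPM in the 3 WT libraries of batch 1 and 58.1 and 61.6 in the 2 of batch 2, with 47.0 to 54.6 and then 65.3 and 65.7 in Het, and 42.2 and 47.0 and then 50.5 and 63.7 in Hom. Within each label every batch 2 library was above every batch 1 library. The batch term was 0.32 (SE 0.06) on the log2 scale (limma, adjusted p = 0.00559), and Chga was the 1 member of the 9 tested that was called between batches. Over all genes tested, 7.88% of the genes were higher and 5.61% lower in batch 2. Its log2 change in Hom against WT was -0.12 (SE 0.07).

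Chgb (ENSMUSG00000027350; chromosome 2, 132781278 to 132795079, plus strand), which encodes chromogranin B, ranged over 47.4 to 66.0 TPM in WT, 52.1 to 66.4 in Het and 46.1 to 57.2 in Hom. Scg3 (ENSMUSG00000032181; chromosome 9, 75643189 to 75684056, minus strand) ranged over 189 to 249.8, 208 to 237 and 189 to 222 TPM. The groups of both genes overlapped, and their log2 changes in Hom against WT were -0.14 (SE 0.09) and -0.12 (SE 0.08). In batch 1 they were 0.04 and 0.05, and in batch 2 they were -0.34 and -0.31. There both Hom libraries lay below both WT libraries, of which WT 4 was the higher for both genes. Summed over the 4 granins, the level was 376 ± 35.4 TPM in WT (SD, n = 5), 383 ± 24.9 in Het (SD, n = 5) and 330.3 ± 13.0 in Hom (SD, n = 4), and the Hom range of 319 to 349 TPM overlapped that of WT. The share of Scg2 in this sum was 11.3% to 14.2% in WT, 11.1% to 14.1% in Het and 7.45% to 11.3% in Hom.

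Of the genes for prohormone processing, Pcsk2 was lower in Hom. Pcsk2 (ENSMUSG00000027419; chromosome 2, 143546156 to 143816285, plus strand) held 11.8, 12.9, 13.6, 17.5 and 13.5 TPM in the WT libraries, 11.4, 11.7, 11.2, 12.3 and 13.5 TPM in the Het libraries, and 7.73, 7.67, 7.96 and 10.03 TPM in the Hom libraries. Every Hom library was below every WT and every Het library, and Hom 4 stood apart above the other 3. Mean levels came to 13.8 ± 2.15 (SD, n = 5), 12 ± 0.913 (SD, n = 5) and 8.35 ± 1.13 TPM (SD, n = 4), with Het at 86.8% and Hom at 60.3% of WT. The log2 change was -0.68 (SE 0.10) in Hom against WT, with -0.66 in batch 1 and -0.72 in batch 2. It was -0.18 (SE 0.09) in Het against WT and -0.50 (SE 0.10) in Hom against Het, and the last was called in 9 of the 29 alternative fits. An annotated antisense gene, Pcsk2os1, overlaps the start of Pcsk2 on the opposite strand at 3.83 to 7.08 TPM. The study ran RSEM at its defaults, which do not use the strand, so reads of the overlap cannot be told apart.

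Scg5 (ENSMUSG00000023236; chromosome 2, 113776362 to 113829121, minus strand), whose protein binds PC2, did not share the pattern of Pcsk2. It held 149.6 to 203 TPM in WT, 144 to 192 in Het and 128 to 172 in Hom, and its log2 change in Hom against WT was -0.20 (SE 0.12), with -0.02 in batch 1 and -0.41 in batch 2. Cpe (ENSMUSG00000037852; chromosome 8, 64592542 to 64693054, minus strand) held 299.8 to 396 TPM in WT, 293 to 389 in Het and 296 to 365 in Hom, and its change was -0.06 (SE 0.10), with 0.10 in batch 1 and -0.25 in batch 2. The groups overlapped for both genes. Pcsk1 (ENSMUSG00000021587; chromosome 13, 75089826 to 75134861, plus strand) did not reach 1 TPM in 4 libraries and was not fitted. Its WT libraries held 0.63, 0.47, 0.57, 0.58 and 0.76 TPM, its Het libraries 1.5, 0.41, 0.75, 0.58 and 0.98 TPM, and its Hom libraries 1.67, 0.94, 0.90 and 0.75 TPM, with overlapping groups.

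Counted together, 9 of the 10 genes passed the filter on low values and 3 of them, Cadps2, Scg2 and Pcsk2, were called lower in Hom against WT, none higher. Over all 17325 genes, limma called 1.41% lower and 1.27% higher in that comparison. The median log2 change of the 9 was -0.20, beside 0.02 over all genes, and 9 of 9 lay below 0, as did 44.5% of all genes. The 9 also lay below 0 after median-ratio and quantile scaling. In batch 1 alone, Chgb, Scg3 and Cpe lay above 0. The same 3 genes had every Hom library below every WT library, as did 1.96% of all genes, and no member had every Hom library above every WT library, as 2.91% of all genes did. An exact Kruskal-Wallis test over the 3 labels after removal of the batch term put the same 3 genes in the lower group at an unadjusted p under 0.01, as it did 2.21% of all genes. It was run on the same libraries as the limma fit, so it is no second line of evidence. The choice of Cadps2 rested on this comparison, and the other members were listed with earlier results of these data known. Nothing is therefore read from these counts for any member.

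In Het against WT limma called 0 of the 9 genes, beside 0% of all genes called lower and 0.00577% higher. Before adjustment, at p under 0.05, Cadps2 was lower and 0 of the 9 were higher, beside 2.88% of all genes lower and 3.2% higher. None of the 9 had every Het library below every WT library, which 0.583% of all genes had. Their median log2 change was -0.04, and 5 of the 9 were below 0. In Hom against Het, Cadps2, Scg2 and Pcsk2 were called lower and none higher, beside 0.277% and 0.15% of all genes, and the same 3 had every Hom library below every Het library, beside 1.06% of all genes. These comparisons share libraries with each other. On the scale of mean TPM, Het stood at 70.3% of WT for Cadps2, at 86.8% for Pcsk2 and at 94.5% for Scg2, while Hom stood at 26.4%, 60.3% and 57.0%.

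**Figure D3:**
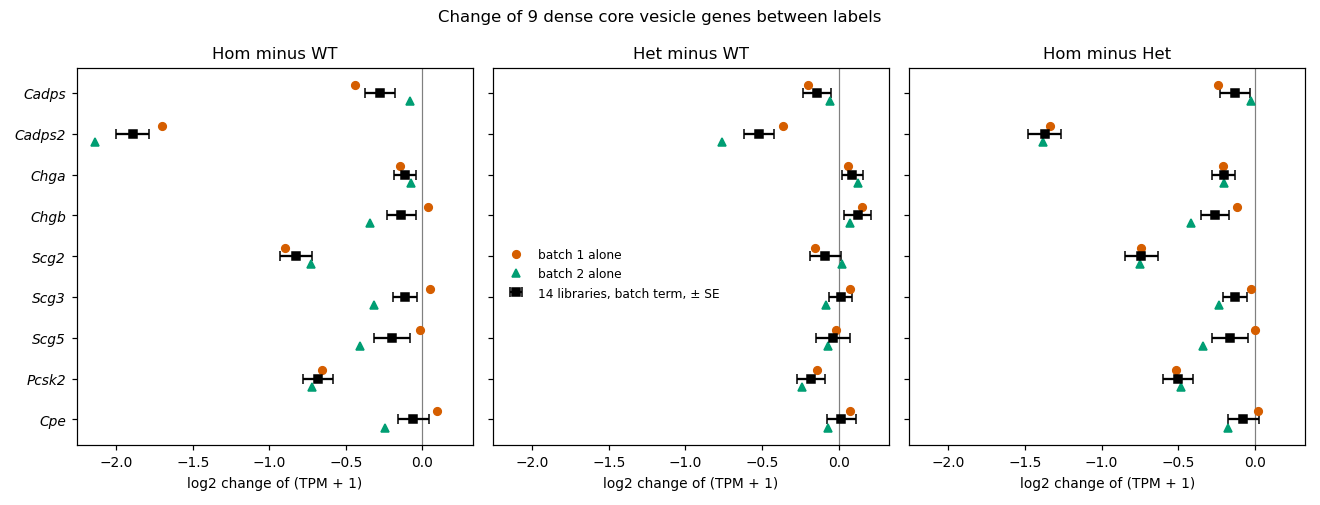
Log2 change of (TPM + 1) of the 9 fitted genes in Hom against WT, Het against WT and Hom against Het; squares with bars are the estimates over 14 libraries with their standard errors, and circles and triangles the values within batch 1 and batch 2. In Hom against WT, Cadps2 lies at -1.89, Scg2 at -0.83 and Pcsk2 at -0.68, and the others lie between -0.27 and -0.06.

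The change in Hom against WT was set beside the batch for every member. The interaction of label and batch was called for 0 of the 9 genes by limma and for 0.0115% of all genes. At an unadjusted p under 0.05 it was past the threshold for 17.2% of all genes and for Cadps2, Chgb and Scg3, with differences of -0.44, -0.38 and -0.36 between batch 2 and batch 1 and adjusted p of 0.239, 0.269 and 0.192. In batch 2, Chgb, Scg3, Scg5 and Cpe each had both Hom libraries below both WT libraries. These groups hold 2 libraries each, and the share of all genes with this order was not counted. WT 4 had the highest WT value of all 4 genes. In batch 1 the 2 groups of these 4 genes overlapped. Scg2 and Pcsk2, by contrast, had differences of 0.17 (SE 0.22) and -0.06 (SE 0.20) between the batches.

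The genes differ widely in span. Of the members fitted, 4 cover more than 100 kb of genome, with Cadps2 at 576.6 kb, Cadps at 450.5 kb, Pcsk2 at 270.1 kb and Cpe at 100.5 kb, and their log2 changes in Hom against WT were -1.89, -0.27, -0.68 and -0.06. The 5 fitted genes of shorter span ran from 5.5 kb (Scg2) to 52.8 kb (Scg5), with changes between -0.83 and -0.12. Long and short members alike included genes that were called lower and genes that were not called. A relation of span to change was not tested.

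A wider list of 60 other genes of dense core vesicles, in 7 roles, was read in the same fits. This list was also chosen with earlier results of these data known. Its calls and p-values between labels are therefore a description and no evidence of a change. Of the 60 genes, 47 passed the filter on low values. In Hom against WT limma called 4 lower and 0 higher, while 8 were lower and 7 higher before adjustment at p under 0.05, as were 6.42% and 8.51% of all genes. The median log2 change was -0.03, beside 0.02 over all genes, and 29 of the 47 were below 0, as were 44.5% of all genes. In Het against WT it called 0 in either direction, 2 being lower and 1 higher before adjustment, and in Hom against Het it called 2 lower and 0 higher. The shares of all genes called, and those before adjustment in Het against WT, are given above for the 10 genes. None of the 4 was called in either batch alone, with only the 2 labels compared or with the granule neuron covariate described below.

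Of the 8 other processing enzymes, Pcsk5, a convertase of the constitutive and regulated pathways, fell. It held 5.03, 5.25, 5.20, 6.42 and 6.50 TPM in the WT libraries and 3.45, 2.82, 3.06 and 4.11 TPM in the Hom libraries, without overlap. The log2 change was -0.64 (SE 0.12; limma, adjusted p = 0.0137), and the Het libraries lay between at 3.92 to 5.50 TPM, overlapping both groups. Pcsk5 was called lower against WT in 22 of the 28 alternative fits that tested it. Pam, which amidates peptides and was the most abundant of these enzymes, was not called, at 68.3 ± 11 TPM in WT (SD, n = 5) and 78.9 ± 16.2 in Hom (SD, n = 4). Pcsk2 and Pcsk5 were also in the list of lower genes that the study drew from these libraries, as were Cadps2 and Unc13c, so their direction is not independent evidence.

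Of the 17 genes of docking, priming and fusion, 16 were tested and 3 fell in Hom against WT, of which 2 are described. Syt9, a calcium sensor of the synaptotagmin family, went from 41.5 ± 5.77 TPM in WT (SD, n = 5) to 33.1 ± 3.36 in Hom (SD, n = 4), a difference of -0.34 on the log2 scale (SE 0.07; limma, adjusted p = 0.0186), with overlapping groups. It also fell in Hom against Het, by 0.37 on the log2 scale, a call held in 11 of the 29 alternative fits, and its call against WT was held in 20 of them. Unc13c, which encodes the priming factor Munc13-3 of granule cells, had 1.07 to 2.39 TPM in WT and 0.48 to 0.88 in Hom, a change of -0.70 (SE 0.17; limma, adjusted p = 0.0397), and it was called in 10 of the 28 alternative fits that tested it.

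The other 5 roles held no called gene. Among 11 genes of vesicle membrane and biogenesis the median log2 change was -0.03, and Rab2a, the most abundant, had 189 ± 7.82 TPM in WT (SD, n = 5) and 185 ± 21.5 in Hom (SD, n = 4). The transport motor Kif1a had 119 ± 9.15 and 118 ± 13.7 TPM. Of the 2 lumenal proteins, Pcsk1n, an inhibitor of PC1/3, had 12.5 ± 4.77 and 13.3 ± 5.30 TPM. Of 16 neuropeptide genes 7 were tested, and Penk, the enkephalin precursor and the most abundant, had 9.96 ± 2.53 and 9.51 ± 4.73 TPM.

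The neurotrophins tied to CAPS2 were found at low levels. Bdnf was under the filter, with 0.09 to 0.34 TPM in WT, 0.17 to 0.38 in Het and 0.13 to 0.31 in Hom. Ntf3, which encodes NT-3, held 5.77, 5.74, 6.55, 7.07 and 5.78 TPM in the WT libraries and 9.31, 9.04, 13.7 and 11.1 TPM in the Hom libraries, so that every Hom library lay above every WT library. Its log2 change was 0.66 (SE 0.18; limma, adjusted p = 0.0719), which missed the threshold, and it was called in 3 of the 29 alternative fits. The Het libraries ranged from 3.99 to 10.8 TPM and overlapped both groups.

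**Figure D4:**
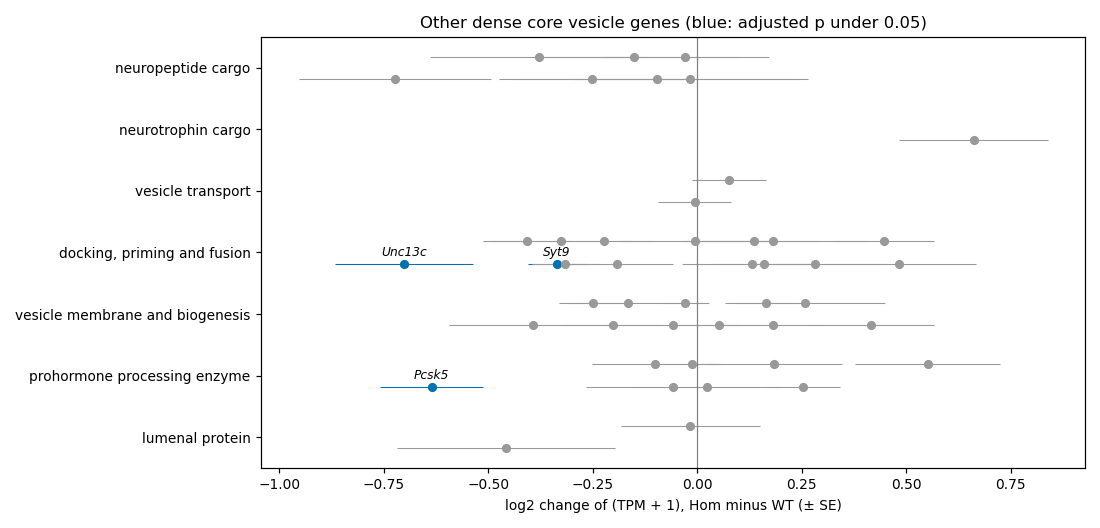
Log2 change of (TPM + 1) in Hom against WT, with its standard error, for the 46 tested genes of the wider list that are shown, by role; blue marks the genes with an adjusted p under 0.05. The 3 blue points, Unc13c, Pcsk5 and Syt9, lie between -0.70 and -0.34, and the single neurotrophin point, Ntf3, lies at 0.66.

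The 4 genes with profiles most like that of Cadps2 over the 14 libraries were Ndst3, Bmp5, Sept4 and Kcnd2. The measure was the root mean square difference of log2(TPM + 1) after each gene was centred on its own mean, and the libraries share label and batch. The distances were 0.24, 0.28, 0.29 and 0.29, beside a median of 0.84 over all genes tested. Sept4 was the most abundant of them, with 259 ± 33.6 TPM in WT (SD, n = 5), 195 ± 32.5 in Het (SD, n = 5) and 101 ± 8.07 in Hom (SD, n = 4). Ndst3 had 103 ± 12.5, 75.2 ± 13.5 and 37.9 ± 12 TPM. Of the vesicle genes, Scg2 at 0.53 and Pcsk2 at 0.56 were nearest to Cadps2, and Chga at 0.79 was farthest.

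Markers of other cells moved between libraries. The 10 markers of differentiating granule neurons, which lie downstream of GNPs in the same lineage, summed to 2630 to 3274 TPM in WT, 2807 to 3037 in Het and 2169 to 2663 in Hom, and of the 9 tested, 3 fell (Neurod1, Tubb3 and Slc17a7) and 1 rose (Grin2c) in Hom against WT. With their mean level as a covariate, an alternative chosen after seeing the data, the Hom against WT changes were -1.94 for Cadps2, -0.84 for Scg2 and -0.70 for Pcsk2, while 0 genes of the wider list were called lower. The 8 Purkinje cell markers summed to 153 to 197 TPM in WT 1 to 3 and to 38.7 to 94.2 TPM in the other 11 libraries, and 1 of the 7 tested (Pcp4) fell. The 8 endothelial markers summed to 32.2 to 214 TPM in WT, 22.9 to 464 in Het and 112 to 347 in Hom, with 0 of 8 called. With the mean levels of the Purkinje and endothelial markers as covariates the changes were -2.15 for Cadps2, -0.75 for Scg2 and -0.69 for Pcsk2. The 7 astroglial markers summed to 411 to 1769 TPM in WT and 311 to 649 in Hom, with 0 of 7 called, and the 5 markers of unipolar brush cells to 108 to 157 and 160 to 177 TPM, where Otx2 rose. No marker was listed at 0 in all libraries. The part of these other cells in the results was not tested. The granule neuron covariate averaged the 9 tested markers, of which 8 had a Hom against WT change below 0 while Grin2c stood at 1.51. The covariates come from the same libraries and can follow the label. The fits with them therefore cannot separate label from cell make-up.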

How the data were processed

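The authors deposited 1 table of gene-level TPM values. Per the study's methods and the submitters' processing notes, single-end reads of 50 bases were mapped to the Ensembl transcriptome of mm10 with Bowtie 1.0.0 and quantified with RSEM 1.2.15. TPM keeps no read number, so the depth of each library is unknown here, no counting interval or detection limit was computed, and the number of libraries sets the precision. The study's ComBat batch correction was not run.

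Control columns 1 to 5 were taken as WT 1 to 5. Gene symbols and positions came from the GENCODE annotation of GRCm38. Genes with at least 1 TPM in at least 4 libraries (17325) were fitted on log2(TPM + 1) with limma 3.58.1 in R 4.3.3 (lmFit, eBayes with trend) with label and sequencing batch as terms over all 14 libraries. A change on this scale understates that of low genes. Two-sided p-values were adjusted by Benjamini-Hochberg over all genes tested and called under 0.05. The script was tested on simulated data. The batches are those of the study's methods; the labels of Het 3 came with those of batch 2, and placing it there was an alternative. The others were 2 pseudocounts, 2 filters, 2 scalings, no batch term, each batch alone, the 2 labels compared alone, array weights, a replicate block, marker covariates, an exact Kruskal-Wallis test and leaving out each library.

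The members and lists were chosen with earlier results of these data known. Named were all members, Chd7, wider-list genes called in any comparison, Bdnf and Ntf3, the most abundant wider-list gene of each role, and the 5 genes most like Cadps2. Some genes that this rule names are not reported here.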

Additional observations from a re-analysis of the deposited data

Results flagged for a closer look

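Pcsk2 in Hom 4 stood apart from the other Hom libraries, at 10.03 TPM beside 7.67 to 7.96. Its gap to the nearest library was 0.877 of the range of the group, above Dixon's critical value for 4 samples. The rule was applied to 30 groups of values, and chance marks about 1 in 20. Without Hom 4 the log2 change of Pcsk2 in Hom against WT was -0.73, in place of -0.68, and it was still called.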

How the results depend on the processing

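The Hom against WT change of Cadps2, which was chosen on these libraries, was -1.70 in batch 1 alone, -2.14 in batch 2 alone and -2.15 with endothelium and Purkinje marker covariates, and its Het against WT change was -0.76 in batch 2 alone and -0.75 with those covariates. Members called lower in Hom against WT numbered 2 in place of 3 in batch 1 alone, where Pcsk2 was not called. They numbered 1 in batch 2 alone (2 libraries a label), where only Cadps2 was called. Members called lower in Het against WT numbered 1 in place of 0 with the endothelium and Purkinje covariates and 0 to 1 with 1 library left out. Members called lower in Hom against Het numbered 1 in place of 3 in batch 1 alone, in batch 2 alone, with the replicate block and with the granule neuron covariate. No called change of a member reversed, Cpe ran from -0.16 to 0.01 in Hom against WT with 1 library left out, and 762 of the alternative values moved by less than the spread between replicates while 21 moved by more.

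The wider list was less stable. Of its 4 lower calls in Hom against WT, 2 were left with a mean TPM of at least 5, without a batch term and with the endothelium and Purkinje covariates, and 0 in batch 1 alone, in batch 2 alone, with only the 2 labels compared, with the replicate block and with the granule neuron covariate; with 1 library left out the number ran from 2 to 5, and it was 2 without WT 4, Hom 2 or Hom 4. Its higher calls numbered 1 in place of 0 with quantile scaling (Unc13b) and, for Ntf3, with only the 2 labels compared, with the endothelium and Purkinje covariates and by the exact Kruskal-Wallis test, and 0 to 1 with 1 library left out (Ntf3 without Het 2, Unc13b without Het 4). Its 2 lower calls in Hom against Het became 1 with a filter of TPM above 0, with Het 3 placed in batch 2 and with only the 2 labels compared, and 0 without a batch term, in batch 1 alone, in batch 2 alone, with the replicate block and with the granule neuron covariate, and 0 to 2 with 1 library left out. The cause of these moves was not tested, beyond the fewer libraries in some fits.

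Replicate numbers did not pair the libraries: 3 of 13 same-numbered pairs correlated above 0.1, and 3 of 14 libraries correlated best with their own number. With the replicate block, 3 members were called lower in Hom against WT and 1 in Hom against Het. The Kruskal-Wallis test compares all 3 labels at once and was run for no single pair; its direction was taken from the difference of Hom and WT. Depth could not be weighed, since TPM keeps none.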

Other observations

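Several neuropeptide genes under or near the filter were listed at higher levels in Het 5 and Hom 4, both of batch 2, than elsewhere. They were picked out after their values were seen, from the 16 neuropeptide genes of the wider list, and not all of the 16 behaved so. Tac1, for example, had 0.21 TPM in Het 5 and 0.40 in Hom 4, and 0 to 0.88 in the other libraries. Gal, the galanin precursor, had 14.1 TPM in Het 5 and 13.1 in Hom 4, and 0 to 1.43 in the other 12 libraries. Crh, the precursor of corticotropin-releasing hormone, had 0.73 and 0.63 TPM in these libraries and 0 to 0.11 elsewhere. Cartpt, the CART precursor, had 1.69 and 0.89 TPM, and 0 to 0.64 elsewhere. Cck, the cholecystokinin precursor, had 1.36 and 1.16 TPM, and 0 to 0.39 elsewhere. Hom 4 was also the Hom library with the highest Scg2, Pcsk2 and Penk, at 36.95, 10.03 and 16.4 TPM. Without Hom 4 the log2 change of Scg2 in Hom against WT was -0.93.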
